A study of Mus musculus with 12 samples.

Results

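The adult globin transcripts Hbb-bs, Hbb-bt, Hba-a1 and Hba-a2 were followed through cultures of mouse CD4+ T cells. These 4 of the 41457 genes in the deposited tables were chosen by name, as haemoglobin genes reported to fall steeply between the 2 collection days, so their change by day is given here as a description with no test. CD4+ T cells from spleen and lymph nodes of C57BL/6 mice were activated with anti-CD3 and anti-CD28. They were skewed toward Th1 cells (IL-12 with anti-IL-4, in RPMI), Th2 cells (IL-4 with anti-IFN-γ, in RPMI) or Th17 cells (TGFβ and IL-6 with anti-IFN-γ and anti-IL-4, in IMDM and with less anti-CD3). The cells came from NFATc1/ΔS mice, whose NFATc1 cannot be joined to the small protein SUMO, or from wild-type (WT) mice, and were collected at day 3.5 or day 2.5. Each combination of culture, genotype and day had 1 library, 12 in all, so no group had replicates. The NFATc1/ΔS and WT libraries of the same culture and day formed 6 pairs, whose spread stands in for replicate error. Separate animals or cultures are not named in the labels, so p-values measure the spread among libraries that may be technical. Th17 cells and their medium and anti-CD3 dose cannot be told apart.

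Haemoglobin is the oxygen carrier of red blood cells and is built from a pair of alpha and a pair of beta globin chains, each holding a haem group with an iron atom. Adult mice of this strain make alpha chains from Hba-a1 and Hba-a2 and beta chains from Hbb-bs and Hbb-bt. Erythroblasts transcribe these genes at very high levels under GATA1, TAL1 and KLF1, reticulocytes keep the messenger RNA after losing the nucleus, and mature T cells are not known for making haemoglobin. In bulk RNA, fewer cells of a type and less RNA per cell cannot be told apart.

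Hbb-bs (ENSMUSG00000052305) lies on the minus strand of chromosome 7 at 103826534 to 103828096 and Hbb-bt (ENSMUSG00000073940) on the same strand at 103812524 to 103813996. Hba-a1 (ENSMUSG00000069919) lies on the plus strand of chromosome 11 at 32283511 to 32284465 and Hba-a2 (ENSMUSG00000069917) at 32296489 to 32297298. Positions are those of the deposited tables, on GRCm38. Counts of paralogs depend on how far their sequences differ, so the place where each pair differs within the coding part is shown first. In the GENCODE transcripts the 444 coding bases of Hbb-bs and Hbb-bt differ at 1 base, C417T from Hbb-bs to Hbb-bt. The 429 coding bases of Hba-a1 and Hba-a2 also differ at 1 base, C381T from Hba-a1 to Hba-a2. Positions are counted from 1 at the A of the start codon. Both differences fall on the third base of a codon (codons 139 and 127) and leave the amino acid as it is. The capital letter marks the differing base.
Hbb-bs: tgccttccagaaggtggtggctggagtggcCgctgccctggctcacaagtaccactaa
Hbb-bt: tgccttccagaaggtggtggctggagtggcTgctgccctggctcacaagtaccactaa
Hba-a1: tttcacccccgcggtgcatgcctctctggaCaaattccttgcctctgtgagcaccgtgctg
Hba-a2: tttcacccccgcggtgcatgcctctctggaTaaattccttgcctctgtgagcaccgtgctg

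Over the whole aligned transcripts identity was 82.4% for Hbb-bs and Hbb-bt and 75.1% for Hba-a1 and Hba-a2. Gaps count as differing positions here, so unequal lengths of the annotated transcripts lower these values. The Hba-a1 transcript held 625 stretches of 75 bases and that of Hba-a2 held 480. The differing positions of this pair were nearly all gaps. Of all stretches of 75 bases in the transcript, 35.7% of those of Hbb-bs, 43.4% of those of Hbb-bt, 37.8% of those of Hba-a1 and 19% of those of Hba-a2 occurred in no transcript of another gene. The shared stretches occurred in the paralog of the same pair and in no other gene. Reads inside the coding part that miss the differing base can therefore not be assigned to 1 gene of a pair.

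The reads showed the same limit. Hbb-bs had 649 reads in the 12 libraries together, of which 193 (29.7%) were counted as unique by the authors. Hba-a2 had 499 reads, of which 41 (8.22%) were unique, the lowest unique share of the 4 genes. Hba-a1 had 145 reads with 45 unique (31%), and Hbb-bt had 112 reads with 41 unique (36.6%). The plot of unique shares sets these beside the shares of unique sequence. None of the reads across exon junctions (149 for Hbb-bs, 22 for Hbb-bt, 34 for Hba-a1 and 151 for Hba-a2) was unique. No intron read was counted for any of the 4 genes in any library. Over all libraries 78.9 to 81.4% of reads on genes were unique, and 2.28 to 4.34% lay in introns.

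**Figure D1:**
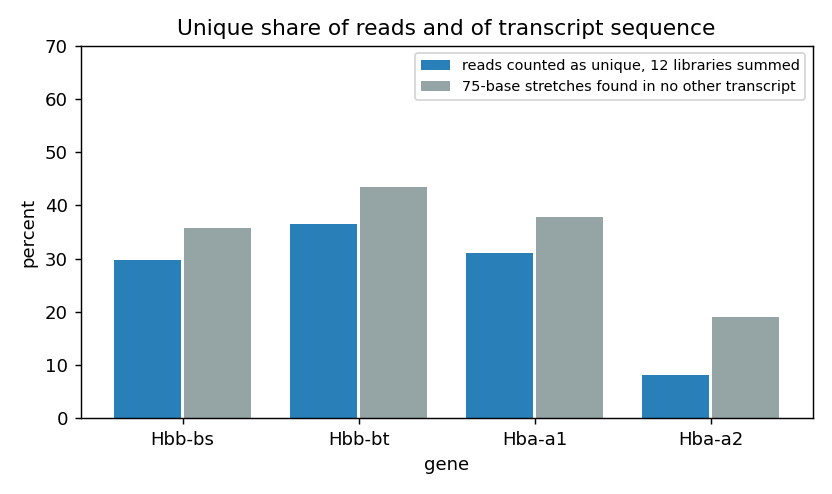
Percent (y axis) of all reads of each globin gene that were counted as unique, summed over 12 libraries (blue), and percent of 75-base stretches of its transcript found in no transcript of another gene (grey), by gene (x axis). Hba-a2 has the lowest share by both measures, at 8.22% of reads and 19% of stretches.

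The share of each paralog depended on which reads were counted. Hbb-bt made up 14.7% of beta globin reads by total reads and 17.5% by unique reads. Hba-a1 made up 22.5% of alpha globin reads by total reads and 52.3% by unique reads. The Hba-a1 transcript held 236 unique stretches of 75 bases and that of Hba-a2 91, so unique reads do not measure the share of each gene. Total reads are used below, because unique reads leave 320 of 1405 globin reads, and sums of a pair are given beside single genes, because a shared read adds to the sum whichever gene it was given to.

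The promoters are shown because the 4 genes are compared side by side, and they show how alike the paralogs are upstream. These are the 120 bases before each RefSeq start on GRCm38.p6, printed 5′ to 3′ along the gene. The windows are chr7:103827929-103828048 (minus strand) for Hbb-bs, chr7:103813924-103814043 (minus strand) for Hbb-bt, chr11:32283552-32283671 (plus strand) for Hba-a1 and chr11:32296372-32296491 (plus strand) for Hba-a2. The deposited positions given above place the starts differently. The windows of Hbb-bs and Hba-a1 lie inside the deposited genes, and those of Hbb-bt and Hba-a2 overlap them in part. Capitals mark 3 motifs wherever either strand matches. The first is CACCC, the box that the erythroid activator KLF1 is known to bind. Another is CCAAT, which the factor NF-Y is known to bind in many promoters, and the last is the TATA box, searched for as ATATAA, at which the general transcription machinery assembles. A match of the CCAAT box on the opposite strand reads, along the gene, as the complement in reverse.
Hbb-bs: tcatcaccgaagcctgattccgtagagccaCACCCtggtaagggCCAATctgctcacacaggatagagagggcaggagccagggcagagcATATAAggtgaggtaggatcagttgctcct
Hbb-bt: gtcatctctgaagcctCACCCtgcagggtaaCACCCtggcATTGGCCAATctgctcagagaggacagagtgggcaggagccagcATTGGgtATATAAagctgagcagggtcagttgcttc
Hba-a1: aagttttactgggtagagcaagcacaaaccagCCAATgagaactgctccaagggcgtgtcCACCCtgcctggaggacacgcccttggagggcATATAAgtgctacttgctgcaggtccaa
Hba-a2: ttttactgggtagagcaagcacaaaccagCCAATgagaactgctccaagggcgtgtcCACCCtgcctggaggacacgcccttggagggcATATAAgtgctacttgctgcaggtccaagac

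Each of the 4 promoters held the 3 motifs marked above. Each also held GATAA, the core that GATA1 is known to bind, farther upstream, 182 to 209 bases before the start. Among the 32851 promoters in the table, 52% held the KLF1 box within 250 bases upstream on either strand, 33.8% the CCAAT box, 22.6% the GATA1 core and 9.1% the TATA box, so single matches are common, and a match is a description of the letters. Over 250 bases upstream Hba-a1 and Hba-a2 were 97.6% identical and Hbb-bs and Hbb-bt 69.3%, with gaps counted as differing. The 6 differing positions of Hba-a1 and Hba-a2 were gaps, because their annotated starts are shifted against each other. The TATA box begins 28 bases before the start in Hba-a1 and 31 bases before it in Hba-a2.

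The libraries held 13417121 to 17774400 reads on genes, and all 4 globins together took 1.48 to 23 CPM (counts scaled to 1000000 reads on genes). The libraries labelled Th1 ran against the day labels of the other cultures. Of 5054 genes called by day in the Th2 and Th17 libraries, 1163 (23%) moved the same way in Th1 NFATc1/ΔS cells and 1963 (38.8%) in Th1 WT cells. Across genes the log2 day change of Th1 cells had a Pearson correlation of -0.22 with that of Th2 cells and of -0.27 with that of Th17 cells, while those of Th2 and Th17 cells had 0.56. Over all genes the Th1 WT day 2.5 library had a correlation of log2 CPM of 0.966 to 0.978 with the Th17 libraries and of 0.95 to 0.959 with the rest of Th1. Whether the day labels of the Th1 libraries were exchanged was not tested. If they were, each Th1 difference between the days given below would have the opposite sign. The Th1 libraries are therefore called by their labels, and fits of genotype, of day and of Th2 against Th17 are given with and without them.

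Globin reads were few in every library, and their summed level differed with culture and labelled day. Th17 WT cells at day 2.5 had the highest summed level, 23 CPM (95% exact binomial interval 20.5 to 25.6), followed by Th2 NFATc1/ΔS cells at day 2.5 with 18.9 (16.8 to 21.2) and Th17 NFATc1/ΔS cells at day 2.5 with 17.6 (15.5 to 20). The libraries labelled Th1 NFATc1/ΔS day 3.5 (8.01, interval 6.71 to 9.48) and Th1 WT day 3.5 (7.08, 5.79 to 8.58) came next, with Th2 WT day 2.5 (6.49, 5.27 to 7.92). The lowest were Th1 NFATc1/ΔS day 2.5 (3.14, 2.32 to 4.16), Th17 WT day 3.5 (2.91, 2.07 to 3.97), Th1 WT day 2.5 (2.9, 2.09 to 3.91), Th2 NFATc1/ΔS day 3.5 (2.16, 1.46 to 3.09), Th17 NFATc1/ΔS day 3.5 (1.74, 1.19 to 2.48) and Th2 WT day 3.5 (1.48, 0.927 to 2.24). Each neighbouring interval in this order overlapped the next, apart from the steps from Th17 NFATc1/ΔS day 2.5 to Th1 NFATc1/ΔS day 3.5 and from Th2 WT day 2.5 to Th1 NFATc1/ΔS day 2.5. The intervals cover counting error only, since the reads carry no molecular identifiers.

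**Figure D2:**
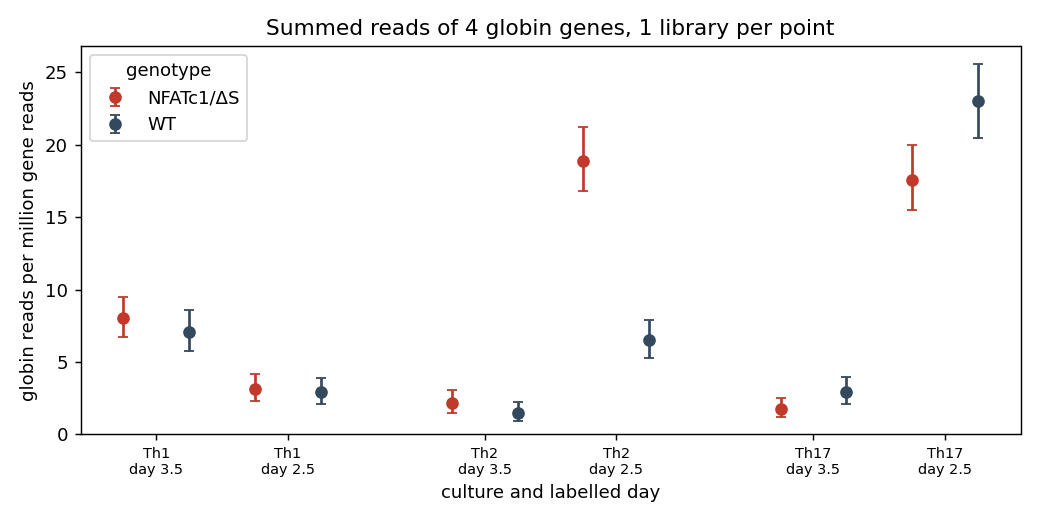
Summed reads of the 4 globin genes in CPM (y axis) by culture and labelled day (x axis), NFATc1/ΔS in red and WT in blue, with 95% exact binomial intervals, 1 library per point. Th2 and Th17 libraries are lower at day 3.5 than at day 2.5, and Th1 libraries are higher at the label day 3.5.

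Hbb-bs, the more abundant beta globin gene, was lower at day 3.5 than at day 2.5 in every Th2 and Th17 pair of libraries. In Th2 cells it had 13 reads (0.937 CPM) in NFATc1/ΔS and 5 (0.336) in WT at day 3.5, against 134 (8.9) and 43 (2.88) at day 2.5. In Th17 cells it had 11 reads (0.619 CPM) in NFATc1/ΔS and 16 (1.19) in WT at day 3.5, against 125 (8.95) and 138 (9.75) at day 2.5. The groups of the 2 days did not overlap over these cultures. This is a description only, since the genes were chosen for their fall. The share of all genes that separate in this way was not computed. In these Th2 and Th17 libraries edgeR called 38.6% of all tested genes by day. The libraries labelled Th1 ran the other way, with 69 reads (4.09 CPM) in NFATc1/ΔS and 50 (3.37) in WT at day 3.5, against 27 (1.77) and 18 (1.24) at day 2.5.

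Hba-a2, the alpha globin gene with most of the assigned reads, followed the same course. In Th2 cells it had 13 reads (0.937 CPM) in NFATc1/ΔS and 14 (0.942) in WT at day 3.5, against 111 (7.37) and 47 (3.15) at day 2.5. In Th17 cells it had 12 reads (0.675 CPM) in NFATc1/ΔS and 19 (1.42) in WT at day 3.5, against 62 (4.44) and 115 (8.12) at day 2.5. Every Th2 and Th17 library of day 3.5 lay below every one of day 2.5, with the same limit as for Hbb-bs. In the libraries labelled Th1 it had 46 reads (2.73 CPM) in NFATc1/ΔS and 40 (2.7) in WT at day 3.5, against 7 (0.458) and 13 (0.896) at day 2.5.

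Hba-a1, the other alpha globin gene, had reads in 8 of 12 libraries. In Th2 cells it had 0 reads in both genotypes at day 3.5, against 23 in NFATc1/ΔS and 0 in WT at day 2.5. In Th17 cells it had 4 reads in NFATc1/ΔS and 0 in WT at day 3.5, against 39 and 40 at day 2.5. A count of 0 allows up to 3 assigned reads in a library. Reads shared with Hba-a2 may also come from Hba-a1, so a count of 0 does not show its absence. In Th2 WT cells at day 2.5 all 47 alpha globin reads were counted for Hba-a2 and none for Hba-a1, whereas Th2 NFATc1/ΔS cells had 23 of 134 on Hba-a1. Only 6 of the 47 were unique, so no difference in the use of the 2 genes is read from these counts. The libraries labelled Th1 had 18 reads in NFATc1/ΔS and 9 in WT at day 3.5, against 9 and 3 at day 2.5.

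Hbb-bt, the minor beta globin gene, had at most 32 reads in a library. In Th2 cells it had 4 reads in NFATc1/ΔS and 3 in WT at day 3.5, against 17 and 7 at day 2.5. In Th17 cells it had 4 reads in each genotype at day 3.5, against 20 in NFATc1/ΔS and 32 in WT at day 2.5. It was the only one of the 4 genes that was lower at the label day 3.5 in Th1 as well, with 2 reads in NFATc1/ΔS and 6 in WT, against 5 and 8 at day 2.5. These counts are too few for a comparison of the days in Th1, which was not tested.

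**Figure D3:**
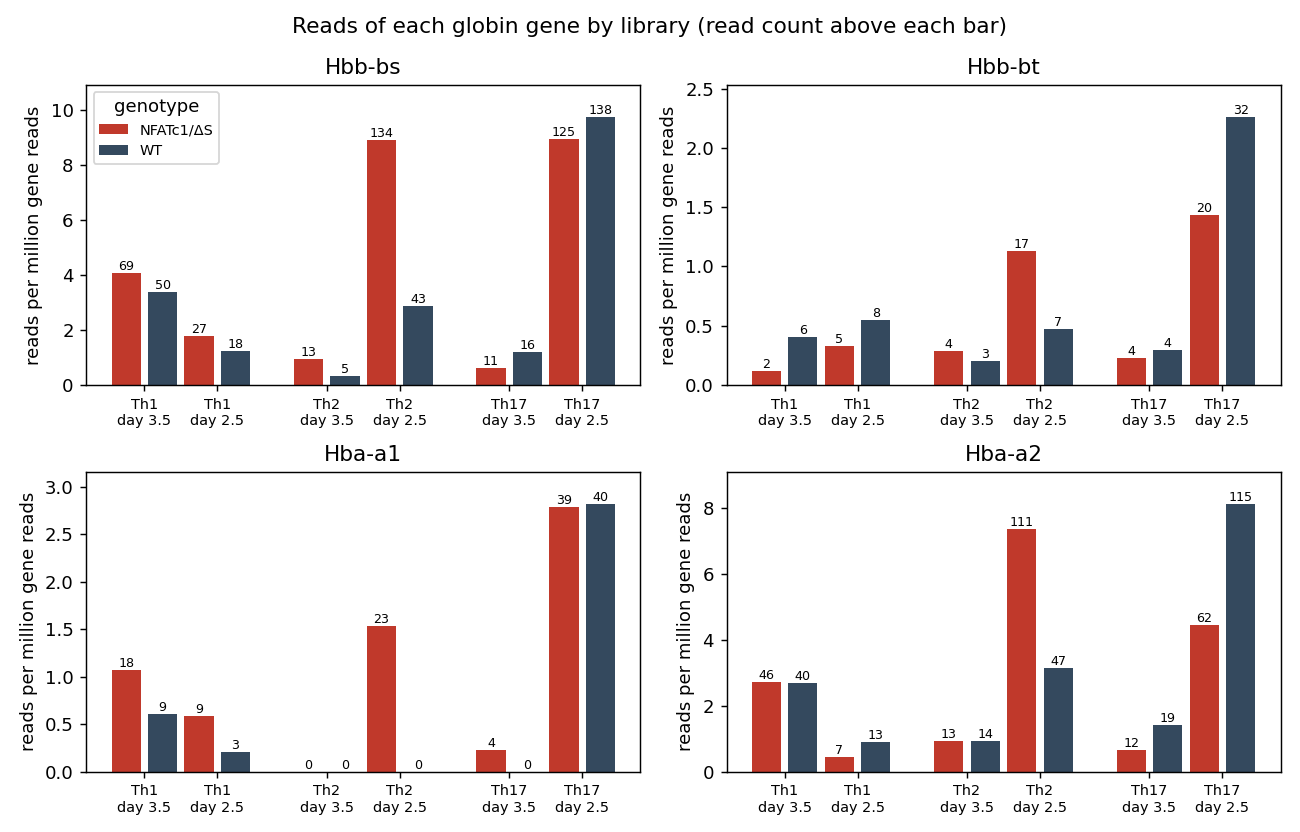
CPM (y axis) of each globin gene by culture and labelled day (x axis), NFATc1/ΔS in red and WT in blue, with the number of reads above each bar, 1 library per bar. Hba-a1 is at 0 in 4 libraries, and Hbb-bs and Hba-a2 carry most reads.

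The summed globin reads of each culture and genotype gave the size of the difference between the days. In Th17 cells the level at day 3.5 was 10.1 times lower than at day 2.5 in NFATc1/ΔS (exact interval 6.93 to 15.2) and 7.9 times lower in WT (5.65 to 11.3). In Th2 cells it was 8.75 times lower in NFATc1/ΔS (5.99 to 13.2) and 4.39 times lower in WT (2.74 to 7.32). In the libraries labelled Th1 the ratio of day 3.5 to day 2.5 was 2.55 in NFATc1/ΔS (1.82 to 3.62) and 2.45 in WT (1.7 to 3.59), so both were higher at day 3.5. Alpha and beta globin moved together in this: the ratio was 0.124 for alpha and 0.0813 for beta in Th17 NFATc1/ΔS cells, and 3.63 and 2.01 in the libraries labelled Th1 NFATc1/ΔS.

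Fitted over all 12 libraries with edgeR, the log2 change by day was -1.92 ± 0.92 for Hbb-bs, -1.93 ± 0.42 for Hbb-bt and -1.28 ± 0.87 for Hba-a2 (± SE). Fitted without the Th1 libraries it was -3.46 ± 0.21 for Hbb-bs, -2.44 ± 0.39 for Hbb-bt and -2.65 ± 0.23 for Hba-a2. Fitted values of Hba-a1 rest on libraries with 0 reads and are left out. Over all genes edgeR called 0 of 13503 genes (0%) by day in the 12 libraries, with 1458 at an unadjusted p under 0.05, 147 by DESeq2 and 0 by limma-voom. It called 5054 of 13086 (38.6%) without Th1. Nothing is read from these shares about the globins, which were chosen for this change.

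The culture with the opposite course was Th1. The fitted log2 day change of Hbb-bs was 1.28 in Th1, -3.33 in Th2 and -3.53 in Th17 cells, so that Th1 exceeded the mean of the other cultures by 4.71 ± 0.65 (SE). For Hba-a2 the values were 1.98, -2.67 and -2.73, a difference of 4.68 ± 0.69. For Hbb-bt they were -0.79, -1.87 and -2.91, a difference of 1.59 ± 0.90. These differences were not tested, because the fall in Th2 and Th17 cells chose the genes. Over all genes 11.9% were called in this comparison. Fitted without the Th1 libraries, the log2 day changes of Th2 and Th17 cells differed by 0.25 ± 1.02 for Hbb-bs, 1.10 ± 0.95 for Hbb-bt and 0.10 ± 0.88 for Hba-a2. These are Th2 minus Th17, where a positive value means a smaller fall in Th2, and no direction is read from them. The adjusted p of edgeR was 0.742 to 0.983 for the 4 genes, where 1.09% of all genes were called. The genes were chosen for these falls, so the p-values do not show that the 2 cultures fell alike.

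**Figure D4:**
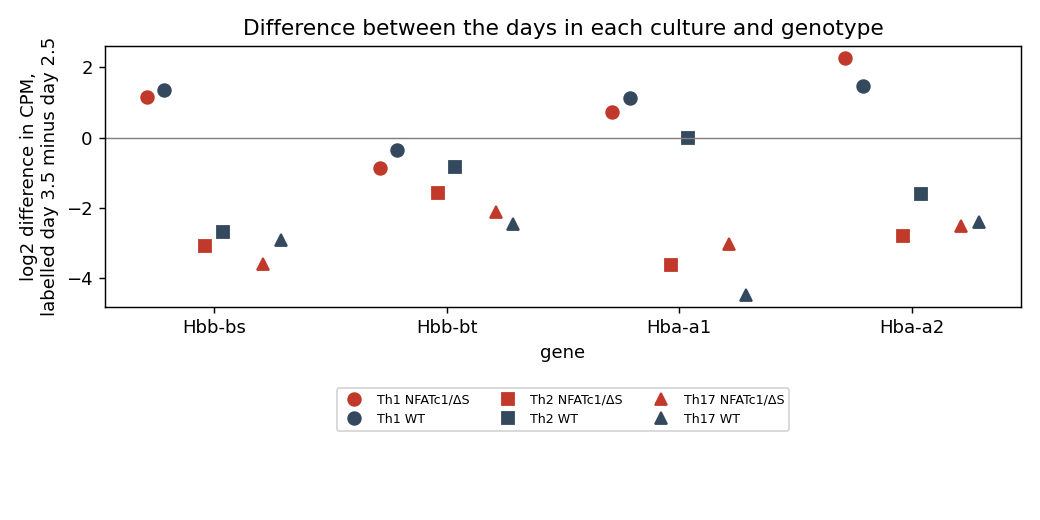
Difference in log2 CPM (prior count 2) between the labelled days 3.5 and 2.5 (y axis) for each globin gene (x axis), by culture (circles Th1, squares Th2, triangles Th17) and genotype (NFATc1/ΔS red, WT blue), each point from 2 libraries. Hbb-bs, Hba-a1 and Hba-a2 lie above 0 in Th1, and the value at 0 is Hba-a1 in Th2 WT cells, which had no read at either day.

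Alpha and beta globin stayed close to each other in level. Per kilobase of exon, the ratio of alpha to beta globin reads had a mean log2 of -0.08 (SD 0.47, 12 libraries), with a lowest value of -0.97 in the library labelled Th1 NFATc1/ΔS day 2.5 and a highest of 0.96 in Th2 WT cells at day 3.5, both libraries with under 50 globin reads. In the 3 libraries with most globin reads the ratio was 0.984 (Th17 WT day 2.5), 0.98 (Th2 NFATc1/ΔS day 2.5) and 0.737 (Th17 NFATc1/ΔS day 2.5). In Th17 WT cells at day 2.5 the level was 12.7 CPM per kilobase of exon for Hbb-bs and 12.2 for Hba-a2, against 3.21 for Hbb-bt and 3.48 for Hba-a1. By unique reads the mean log2 ratio of alpha to beta was -1.42 over the 10 libraries that had unique reads of both. Unique reads were divided by the whole exon length here. Only 19% of the 75-base stretches of Hba-a2 were unique, against 35.7% of those of Hbb-bs, so no lower alpha level is read from this value.

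**Figure D5:**
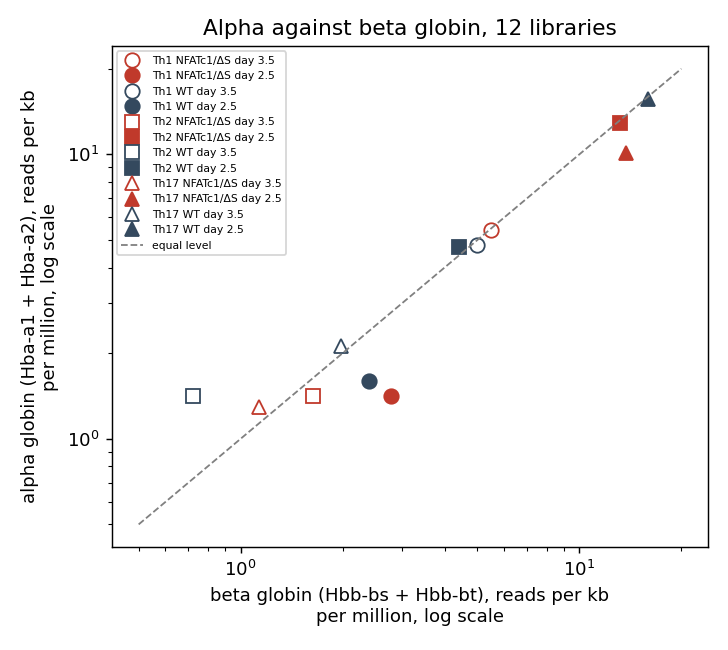
Alpha globin level (Hba-a1 plus Hba-a2, y axis) against beta globin level (Hbb-bs plus Hbb-bt, x axis), both in CPM per kilobase of exon on log axes, by culture (circles Th1, squares Th2, triangles Th17), genotype (NFATc1/ΔS red, WT blue) and labelled day (open 3.5, filled 2.5). The dashed line marks equal levels, and the libraries of Th17 WT and Th2 NFATc1/ΔS cells at day 2.5 lie near it at the upper end, with ratios of 0.984 and 0.98.

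The pairs of libraries ask whether NFATc1/ΔS cells differed from WT cells in globin transcripts. Summed globin reads in Th2 cells at day 2.5 were 285 in NFATc1/ΔS and 97 in WT, a ratio of levels of 2.91 (interval 2.31 to 3.71), and at day 3.5 they were 30 and 22, a ratio of 1.46 (0.816 to 2.66). In Th17 cells they were 246 and 325 at day 2.5 (ratio 0.767, interval 0.648 to 0.908) and 31 and 39 at day 3.5 (0.6, 0.362 to 0.987). In the libraries labelled Th1 they were 48 and 42 at day 2.5 (1.08, 0.702 to 1.68) and 135 and 105 at day 3.5 (1.13, 0.869 to 1.47). The ratio was thus above 1 in the Th1 and Th2 pairs and below 1 in the Th17 pairs, with intervals that include 1 in both Th1 pairs and in Th2 at day 3.5. Each ratio compares a single pair of libraries.

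Over the 6 pairs no globin passed the test of genotype. The log2 difference of NFATc1/ΔS over WT was 0.45 ± 0.30 for Hbb-bs (edgeR, quasi-likelihood test, Benjamini-Hochberg adjusted p = 0.839), -0.22 ± 0.38 for Hbb-bt (adjusted p = 0.904), 1.30 ± 0.67 for Hba-a1 (adjusted p = 0.839) and -0.18 ± 0.31 for Hba-a2 (adjusted p = 0.901). For Hba-a1, 3 of the 6 pairs had a count of 0 in the WT library or in both libraries. Over all genes edgeR called 0 of 13503 (0%) by genotype, with 773 at an unadjusted p under 0.05, 22 by DESeq2 and 2 by limma-voom. Without the Th1 libraries 1.96% of genes were called, and none of the 4 globins (adjusted p 0.68 to 0.974). The change of the day difference with genotype was also not called for any globin, from -0.33 ± 1.48 for Hba-a2 to -0.63 ± 0.94 for Hbb-bt (adjusted p 0.988 to 1), where edgeR called 0% of genes, with 325 at an unadjusted p under 0.05 and 1 by DESeq2. Without Th1 it called 0% as well, with 864 at an unadjusted p under 0.05.

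Between cultures, with both days and genotypes together (4 libraries each), no globin passed edgeR's test. Hbb-bs had a log2 difference of 0.63 ± 1.04 in Th1 over Th2 (edgeR adjusted p = 0.669), of 0.02 ± 0.86 in Th1 over Th17 (adjusted p = 0.991) and of -0.61 ± 0.93 in Th2 over Th17 (adjusted p = 0.746). Hbb-bt had -0.63 ± 0.60, -1.32 ± 0.57 and -0.69 ± 0.55 in the same comparisons (adjusted p = 0.448, 0.198 and 0.494). Hba-a2 had -0.32 ± 1.03, -0.41 ± 1.02 and -0.09 ± 0.91 (adjusted p = 0.834, 0.828 and 0.968), and Hba-a1, with 0 reads in some libraries, had 1.75 ± 1.52, -0.34 ± 1.48 and -2.09 ± 1.39 (adjusted p = 0.404, 0.906 and 0.4). DESeq2 called Hba-a1 between Th1 and Th2, with a log2 difference of 3.89 (adjusted p = 0.0496, 12 libraries), where the other settings that kept all 12 libraries had adjusted p from 0.396 to 0.794. Of all genes 28.1% were called between Th1 and Th2, 4.66% between Th1 and Th17 and 11.8% between Th2 and Th17. Without the Th1 libraries 40.4% were called between Th2 and Th17, and none of the 4 globins (adjusted p 0.157 to 0.843).

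The direction changed with the Th1 pair that was left out. Without the pair labelled Th1 day 2.5, Hbb-bs had a log2 difference of 2.63 over Th2 and of 2.03 over Th17, higher in Th1. Without the pair labelled Th1 day 3.5, the differences were -2.11 and -2.71, lower in Th1. Hba-a2 changed in the same way, at 1.52 and -3.18 for Th1 against Th2 and at 1.42 and -3.24 for Th1 against Th17. With 1 Th1 day left, these values set Th1 against cultures whose change by day chose the genes, so they are a description with no test.

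Other globin genes were near or at 0. The embryonic beta-like genes Hbb-y and Hbb-bh2, the embryonic alpha-like gene Hba-x and the theta-like genes Hbq1a and Hbq1b had no read in any library, and Hbb-bh1 had 1 read. Myoglobin (Mb) had 1 read, cytoglobin (Cygb) 7 and neuroglobin (Ngb) 11 in the 12 libraries together. None of these 9 genes had enough reads to be tested.

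The neighbouring genes of both clusters were looked at next. Of 13 other genes within 100 kb of Hbb-bs or Hbb-bt, most of them olfactory receptor genes, 9 had no read and none could be tested. Of 9 other genes within 100 kb of Hba-a1 or Hba-a2, 3 had no read and 6 were tested. By day without Th1, 2 of the 6 were called, close to the 38.6% of all genes called there. Nprl3, whose introns are known to hold the alpha globin enhancers, was higher at day 3.5 than at day 2.5 in Th2 and Th17 cells by 0.63 ± 0.11 on the log2 scale (edgeR adjusted p = 0.00148). Snrnp25, a subunit of the minor spliceosome, was lower by -0.28 ± 0.08 (adjusted p = 0.0233). Mpg, a DNA glycosylase, had 0.05 ± 0.10 (adjusted p = 0.736), and Rhbdf1, Il9r and Sh3pxd2b did not pass either (adjusted p 0.232 to 0.481).

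The erythroid marker list divided by level. Of 35 erythroid markers, 34 were in the files, and 16 of these stayed under 1 CPM in every library, while 8 exceeded 10 CPM in every library and 10 lay between. Trim58, a ubiquitin ligase of late erythroblasts, had no read in any library. Alas2, the erythroid enzyme that starts haem synthesis, had at most 0.494 CPM (0 to 7 reads), Slc4a1 (the band 3 anion exchanger) at most 0.215, Ank1 (ankyrin) at most 0.393, and Epb42 and Rhag at most 0.134. Alas2 had 0 CPM in NFATc1/ΔS and 0.149 in WT Th17 cells at day 3.5, against 0.286 and 0.494 at day 2.5, counts of 0 to 7 reads that are too few for a comparison. Others were well above 0, here named after their values were seen. Cd24a, a surface protein of many immature blood cells, had 2.49 to 125 CPM, Slc25a37 (mitoferrin, a mitochondrial iron carrier) 20.2 to 31.3, Epor, the erythropoietin receptor, 0.785 to 6.43, and Hemgn (hemogen, a nuclear protein of blood progenitors) 0.931 to 6.35. In all, 18 of the 34 had enough reads to be tested. The summed level of the list was 1010 to 1080 CPM in Th17 cells at day 3.5, against 1400 to 1550 at day 2.5, 1490 to 1580 in Th2 cells at day 3.5, against 1790 to 2110 at day 2.5, and 1310 to 1320 in the libraries labelled Th1 at day 3.5, against 710 to 1030 at day 2.5. The sum thus moved in the same direction as the globins in each culture, and its part in the globin result was not tested. Sums of other lists, some of which moved against the globins, are given below. It consisted mostly of 3 genes, Bnip3l, Slc2a1 and Epb41, that were present at 122 CPM or more in every library.

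By day without Th1, 2 of the 18 erythroid markers were higher and 7 lower, with a median log2 change of -0.35, beside 38.6% called and a median of 0.03 over all genes. Those of smallest p were Slc2a1, a glucose transporter (-0.81 ± 0.08, edgeR adjusted p = 6.03e-05), Bnip3l, a mitophagy receptor (-0.64 ± 0.08, adjusted p = 0.000175), Epb41, protein 4.1 of the membrane skeleton (-0.36 ± 0.07, adjusted p = 0.00359), and Epor (-0.78 ± 0.17, adjusted p = 0.00545). With all 12 libraries none of the 18 was called by day, and none of the genes of the other lists below. The day change of Slc2a1 differed between cultures (edgeR F test over the 3 cultures, adjusted p = 0.00301). It was the only 1 of the 18 called there, where 11.9% of all genes were called. Its day change was higher by 1.69 in Th1 than in the mean of Th2 and Th17, a contrast that this F test does not test by itself. By genotype none of the 18 was called with all 12 libraries, where 0% of all genes were. Without Th1 1 of the 18 was called, where 1.96% of all genes were. This was Cd24a, lower in NFATc1/ΔS by -1.12 ± 0.10 (edgeR adjusted p = 0.00049), against -1.13 ± 0.26 (adjusted p = 0.795) with all 12. It had 41.8 and 50.6 CPM in NFATc1/ΔS Th2 cells at days 3.5 and 2.5, against 94.9 and 125 in WT.

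Of 11 tested transcription factors of red cell precursors, 1 was higher and 3 were lower at day 3.5 without Th1, a share close to the 38.6% of all genes called there. Myb, a factor of progenitors, was higher by 0.97 ± 0.12 (edgeR adjusted p = 0.000258). Klf3, which is known to bind the same CACCC boxes as KLF1, was lower by -1.02 ± 0.14 (adjusted p = 0.00045). Ldb1, a bridging factor of enhancers, was lower by -0.29 ± 0.07 (adjusted p = 0.0058), and Klf1 by -1.03 ± 0.37 (adjusted p = 0.0464) at a level of at most 0.996 CPM. Klf3 was also called for a day change that differed between cultures (edgeR F test over the 3 cultures, adjusted p = 0.0117). It was the only 1 of the 11 called there, where 11.9% of all genes were called. Its day change was higher by 2.54 in Th1 than in the mean of Th2 and Th17. Gata1, the main activator of globin genes, had 1.08 to 6.69 CPM, and Tal1 at most 0.225.

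Of the haem synthesis genes, by day without Th1, 3 of 11 were higher (among them Alad at 0.33 ± 0.07 and Alas1 at 0.38 ± 0.09, edgeR adjusted p = 0.00527 and 0.00678) and 1 was lower (Cpox at -0.29 ± 0.07, adjusted p = 0.0102). This share too was close to the 38.6% of all genes. These encode enzymes of the pathway that all cells use. Of 13 genes of haem breakdown and iron, 3 were higher and 6 lower in the same comparison (38.6% of all genes called), with a median of -0.04. Hmox1, the haem oxygenase that haem is known to induce, was lower by -0.97 ± 0.12 (adjusted p = 0.000264), Slc48a1, a haem transporter, by -0.55 ± 0.07 (adjusted p = 0.000264), and Blvrb, a biliverdin reductase, by -0.41 ± 0.09 (adjusted p = 0.00408). Tfrc, the transferrin receptor that takes up iron, was higher by 0.34 ± 0.08 (adjusted p = 0.00612). Of these 13, Hmox1 and Blvra were called for a day change that differed between cultures (edgeR F test over the 3 cultures, adjusted p = 0.00799 and 0.0269). Of all genes 11.9% were called there, and none of the 11 haem synthesis genes. Relative to the mean of Th2 and Th17, the day change in Th1 was higher by 1.56 for Hmox1 and lower for Blvra (-0.82).

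T cell markers were abundant, with a summed level of 4400 to 6260 CPM. B cell markers summed to 23.6 to 24.3 CPM in the libraries labelled Th1 at day 3.5, against 57.5 to 70.8 at day 2.5, to 90.6 to 104 in Th2 cells at day 3.5, against 104 to 113 at day 2.5, and to 50 to 60.9 in Th17 cells at day 3.5, against 74.7 to 89.9 at day 2.5. In Th1 this sum moved against the globins and in Th17 with them. Mast cell and basophil markers summed to 29.1 to 32.4 CPM in the libraries labelled Th1 at day 3.5, against 6.28 to 21.4 at day 2.5, to 2.56 to 4.18 in Th2 cells at day 3.5, against 3.62 to 4.65 at day 2.5, and to 8.44 to 11.7 in Th17 cells at day 3.5, against 21.2 to 38.1 at day 2.5. This sum moved with the globins in Th1 and Th17, and its ranges overlapped between the days in Th2. Kit, a receptor of mast cells and progenitors, had up to 35.7 CPM, while 6 of the 9 genes of the list stayed under 1 CPM in every library. Platelet and megakaryocyte markers summed to 67 to 80 CPM in the libraries labelled Th1 at day 3.5, against 53.5 to 65.2 at day 2.5, and to 34.2 to 44 in Th17 cells at day 3.5, against 71.4 to 78 at day 2.5, so this sum also moved with the globins there. In Th2 cells it was 189 to 245 at day 3.5, against 204 to 276 at day 2.5. Itgb3, an integrin chain, had 28.9 to 263 CPM of this sum, and 9 of the 14 genes stayed under 1 CPM in every library. In the libraries labelled Th1, CD8 and NK markers summed to 57.6 to 62.2 CPM at day 3.5, against 124 to 157 at day 2.5. This sum moved against the globins there, and with them in Th17 cells (42.8 to 48.7, against 59.6 to 70.7). Haem synthesis genes moved against the globins in Th2 cells (316 to 323, against 257 to 263). They did so in Th17 cells too (326 to 342, against 273 to 274). Dendritic cell markers moved with the globins in Th17 cells (218 to 219, against 281 to 287). The part of these lists in the globin result was not tested. Of 9 B cell markers tested by day without Th1, where 38.6% of all genes were called, 2 were lower and none higher. Myeloid and neutrophil markers had 5 tested genes, none called. Dendritic cell markers had 2 higher and 1 lower of 8, platelet and megakaryocyte markers 2 higher and 1 lower of 5, CD8 and NK markers 4 lower of 6, and mast cell and basophil markers 1 lower of 2.

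The genes whose levels were most like the mean log2 CPM of the 4 globins over the 12 libraries were Arrdc3, Seh1l, 1810032O08Rik, Zfp277, Mnat1, Snhg1, Pag1, Cul4b, Zfp524 and Cdh1, with Pearson correlations from 0.89 for Arrdc3 to 0.86 for Cdh1. Arrdc3 had 8.38 CPM in NFATc1/ΔS and 8.42 in WT Th17 cells at day 3.5, against 12.6 and 14.7 at day 2.5. Snhg1, the host of small nucleolar RNAs, had 90.7 and 95.6 CPM in the libraries labelled Th1 at day 3.5, against 41.2 and 53 at day 2.5, the same order of days as the globins in Th1. After the mean of each day was taken off, the most alike were Zfp524 (0.91), Vegfb, Sh2b2, Dnaaf3, Snhg1, Gpr45, Gm43064, Hotairm1, Zdhhc18 and Klf3 (0.88). Without the library labelled Th1 WT day 2.5, only Zfp524 and Gpr45 of these stayed among the 10 most alike. Of the genes alike by level, Arrdc3, Seh1l, 1810032O08Rik, Zfp277 and Snhg1 stayed, so the named genes depend on that library. The libraries share culture, day and scaling, so the correlations describe these 12 libraries and carry no test.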

How the data were processed

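Poly(A) RNA of 12 libraries was sequenced. The authors deposited 1 table per library with read counts per gene, and per the file headers the columns used here are counts of total, unique, exon, intron and junction reads. The submitters' processing notes name GRCm38; aligner and counter: not given in the sources used here. Total gene reads (13417121 to 17774400 per library) entered edgeR 4.0.16, run in R 4.3.3 (TMM scaling, filterByExpr with min.count 10 and min.total.count 15, robust quasi-likelihood fits, Benjamini-Hochberg adjustment at 0.05, SE as the log2 fold change over the square root of F). Genotype was tested with culture and day as blocks, cultures with genotype and day as blocks, and interactions with the remaining factor as replicates. All 4 globins passed the filter. The fit was tested on simulated data. The members and lists were chosen with earlier results of these data known. No p is given for the change of the 4 globins by day or for its difference between Th1 and the other cultures. The p-values of other genes of the lists are printed and are no independent support.

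Log2 CPM used a prior count of 2. Levels per length divide reads by the deposited exon length. Intervals are exact binomial at 95% and cover counting error only. Coding parts, shared 75-base stretches and identities came from GENCODE transcripts, and promoters from RefSeq, all 4 matched by symbol, with Biopython 1.88. Named genes were the 4 globins, up to 4 genes of smallest p in each list, neighbours within 100 kb and the 10 most alike by Pearson correlation. Alternatives were DESeq2 1.42.0, limma-voom 3.58.1, size factors by RLE, unique or exon reads, no read filter, no robust fit, no blocks, and libraries, pairs or cultures left out. A few genes of the lists are not reported here by their names and stay in the counts.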

Additional observations from a re-analysis of the deposited data

Results flagged for a closer look

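Hbb-bs and Hba-a2 changed with the labelled day in opposite directions in Th1 and in the other cultures. Both genotypes were higher at day 3.5 in the libraries labelled Th1 and lower at day 3.5 in Th2 and Th17 cells. The fitted log2 day change of Th1 exceeded the mean of Th2 and Th17 by 4.71 for Hbb-bs and by 4.68 for Hba-a2. The difference was not tested, because the fall in Th2 and Th17 cells chose the genes. Across all genes the libraries labelled Th1 also ran against the days of the other cultures, with 23% and 38.8% of 5054 genes moving the same way in NFATc1/ΔS and WT, and the part of this in the globin result was not tested.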

How the results depend on the processing

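No alternative called a globin by genotype or by genotype and day. The day change fitted for Hbb-bs and Hba-a2 kept its sign under each alternative (-3.46 to -1.43 and -2.65 to -0.82), and Th1 exceeded the other cultures by 4.52 to 5 for Hbb-bs and 4.29 to 5.17 for Hba-a2. Under unique reads only Hbb-bs passed the filter in the fits of culture by day. Leaving out a pair leaves a culture with 1 day, so culture by day was refitted without each block of culture and genotype, an alternative added after seeing the data, in which a culture left with a single block is assumed to vary like the others. Low read counts limit Hbb-bt and Hba-a1 most. The cause of the changes below was not tested.

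Genes called by genotype were 22 by DESeq2, 2 by limma-voom, 3 with no read filter, 1 by unique reads, 1 by exon reads, 25 without the library labelled Th1 WT day 2.5, 257 without the 4 Th1 libraries and 0 to 25 with each pair left out. DESeq2 called 1690 genes between Th1 and Th17, 1 by genotype and day, 2533 by culture and day and 147 by day. With no read filter 6 genes were called by day. Without the library labelled Th1 WT day 2.5, 6708 genes were called by culture and day. Without the Th1 libraries 5288 were called between Th2 and Th17, 143 by culture and day and 5054 by day. With each pair or block left out, 721 to 6235 genes were called between Th1 and Th2, 7 to 4124 between Th1 and Th17, 183 to 5518 between Th2 and Th17, 129 to 6405 by culture and day and 0 to 219 by day. Dropping the replicate block (the pairing of culture samples by genotype and day) moved no count of genes called by more than 1.5 times.

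Log2 differences of globins that changed sign were these. Hbb-bs between Th1 and Th2 was -0.62 by limma-voom, -0.01 by unique reads and -0.51 with no replicate block, and between Th1 and Th17 it was -1.11, -0.62 and -1.02 under the same settings. Hba-a1 between Th1 and Th17 was 0.8 by DESeq2, and by genotype and day 0.02 by limma-voom. Without the library labelled Th1 WT day 2.5, Hba-a2 was 0.32 between Th1 and Th2, 0.34 between Th1 and Th17 and 0.02 between Th2 and Th17, Hba-a1 was 0.68 between Th1 and Th17, and by genotype and day Hbb-bs was 0.04, Hba-a1 0.29 and Hba-a2 0.14. Without the Th1 libraries Hbb-bt by genotype was 0.07 and Hba-a1 by genotype and day 2.54. With each pair left out, the difference between Th1 and Th2 ran from -2.11 to 2.63 for Hbb-bs, -1.25 to 0.42 for Hbb-bt, -0.87 to 5.66 for Hba-a1 and -3.18 to 1.52 for Hba-a2. Between Th1 and Th17 it ran from -2.71 to 2.03 for Hbb-bs, -3.13 to 2.98 for Hba-a1 and -3.24 to 1.42 for Hba-a2. Between Th2 and Th17 it ran from -2.16 to 1.26 for Hbb-bs, -6.21 to 0.69 for Hba-a1 and -1.52 to 1.47 for Hba-a2. By genotype and day it ran from -1.37 to 0.32 for Hbb-bs, -1.19 to 0.03 for Hbb-bt, -2.93 to 2.33 for Hba-a1 and -1.18 to 0.62 for Hba-a2.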
